A study of Hordeum vulgare with 18 samples.

Results

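Whole spikes of the barley line KD-CKX1 17_10 (line 17_10 below) were compared with spikes of the azygous control at stage 49 of the BBCH scale for plant development, when the first awns become visible. The comparison takes 6 of the 18 libraries of the series, 3 of the line and 3 of the control, and covers the 19369 of 26066 features that reached a normalized count of at least 10 in 3 or more of these 6 libraries. Line 17_10 is a transgenic line with a silenced HvCKX1 gene, and the control is azygous, which means that it carries no copy of the transgene. Both are in the cultivar Golden Promise and were grown in field plots, with the same herbicide and fungicides. Line 17_10 is 1 of 2 independent silenced lines. The other, KD-CKX1 5.8 (line 5.8), and the libraries of stage 59, the end of heading, are used below to show where line 17_10 stands apart. Not given in the sources used here are the silencing construct, its promoter and the number of plants behind a replicate.

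The product of HvCKX1 is a cytokinin oxidase/dehydrogenase. Enzymes of this family inactivate cytokinins by removing their side chain. Cytokinins are plant hormones that promote cell division, and in cereals the activity of these enzymes in the young inflorescence is known to bear on how many flowers and grains form. The values here are read counts per gene identifier. No identifier matched the barley gene table at hand (0 of 26066), so neither the level of HvCKX1 nor the markers of spike tissues could be checked, and no gene is given a function.

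The 3 line 17_10 libraries held 59895875, 74202137 and 58019756 reads and the 3 control libraries 106034579, 73904286 and 48083466. The control spikes varied more among themselves. Correlations of log2(normalized count + 1) ran from 0.979 to 0.987 within line 17_10 and from 0.939 to 0.981 within the control, and between the groups they ran from 0.964 to 0.979. On the first principal component of the 6 libraries, which held 45.3% of the variance, the line 17_10 libraries lay at 7.5, 7.4 and 15.5, and the control libraries at -28.6, 66 and -67.8. The line thus fell between its controls on the main axis of variation, and the second component, with 21.5%, separated the groups (21.6 to 32.6 in line 17_10, -41.7 to -18.6 in the control).

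A small set of genes differed. In limma fits of all 18 libraries, 42 of 19369 genes passed an adjusted p of 0.05, which is 0.217% of those tested. Of these, 24 were higher in line 17_10 (0.124%) and 18 were lower (0.0929%). The replicates of the groups did not overlap in any of the 42, against 5.88% of all tested features without overlap. The 42 were called on these same libraries, so their lack of overlap adds no support to the calls. A change of at least 16-fold was estimated for 32 tested genes, and 27 of them were called. For changes of at least 2-fold the numbers were 389 tested and 42 called. The median log2 fold change of all tested genes was 0.

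**Figure D1:**
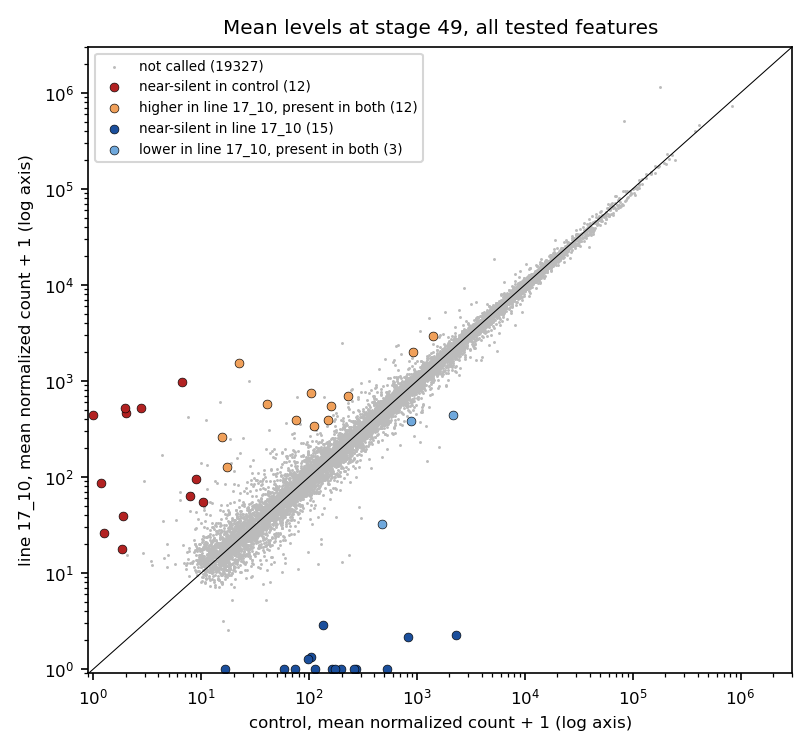
Mean normalized count + 1 at stage 49 in line 17_10 (vertical log axis) and control (horizontal log axis), 3 libraries each; grey points are the 19327 tested features that were not called, coloured points the 42 called genes by pattern, and the line marks equal levels. Nearly all features follow the line, while 15 blue points lie at the floor of line 17_10 and 12 red points at a control mean below 10.

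The 42 genes fell into 4 patterns, which were drawn up with the results known and serve as description. A mean below 10 normalized counts is here called near-silent. By this measure 15 of the 18 lower genes were near-silent in line 17_10, and 3 were present in both genotypes. Of the 24 higher genes, 12 were near-silent in the control and 12 were present in both. Values are not corrected for gene length, so levels are compared within a gene.

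The 15 genes near-silent in line 17_10 had means of at most 1.881 normalized counts there, against 15.73 to 2311 in the control. Together they had 5, 6 and 5 reads in the line 17_10 libraries, against 8838, 6977 and 4637 reads in the control libraries. Each of the 15 was called on these libraries and grouped by its low mean in the line, so this gap follows from the choice of genes. In 10 of the 15, no read was found in any line 17_10 library, out of 192117768 reads pooled over the 3. Against a floor of 3 reads per library, these 10 genes were at least 5.69-fold to at least 191-fold lower, the bound depending on the control level. Over the whole table, the same 10 were the only features with 0 reads in line 17_10 and at least 10 normalized counts in every control library. Such a pattern itself favours a call, so it adds no support that all 10 were called. The reverse, 0 reads in the control and at least 10 in every line 17_10 library, was found for 1 feature.

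MLOC_312 had the highest control mean of the 15. It was at 0.9642, 0.8449 and 1.913 normalized counts in the line 17_10 libraries, against 2326, 2217 and 2389 in the control libraries. These are 4 reads in the line and 9026 in the control. Line 17_10 averaged 1.241 ± 0.5853 and the control 2311 ± 87.22 (SD, n = 3 each), a log2 fold change of -10.04 ± 0.34 SE (adjusted p = 2.69e-10 by limma). The control level was 1880 times that of the line in pooled reads scaled to size factors, with a 95% exact interval of 734 to 6910 for counting error.

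MLOC_52240 had 0 reads in all 3 line 17_10 libraries, against 445.8, 633.9 and 505.4 normalized counts in the control libraries. It was at least 191-fold lower in line 17_10 (limma adjusted p = 7.39e-10). In both genes every line 17_10 library lay below the lowest control library by a wide margin.

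Both genes were at or near 0 reads in line 17_10 at stage 59 too, and line 5.8 held them. MLOC_312 had 0, 2.055 and 0 normalized counts in line 17_10 at stage 59, against 1537, 1465 and 1595 in the stage 59 control, and MLOC_52240 had 0, 2.055 and 0 against 974.5, 883.3 and 953.2. Line 5.8 held MLOC_312 at 2082, 2500 and 2003 and MLOC_52240 at 618.9, 558.5 and 530.6 at stage 49, within or near the control range. All 15 genes were lower in line 17_10 than in line 5.8 at stage 49 (each called by limma, against 0.284% of all tested genes called in either direction). This comparison uses the same line 17_10 libraries, so it adds the line 5.8 libraries alone. In line 5.8 against the control, 0 of the 15 were called. Since 0.279% of all tested genes were, a count of 0 among 15 says nothing about these genes. Their median log2 fold change in that comparison was 0.24, and MLOC_48096, named after its values were seen, was lowest at -1.21.

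The summed level of the 15 genes was 4.821, 5.069 and 4.783 normalized counts in line 17_10, 6369, 6883 and 5631 in line 5.8, and 4870, 5467 and 5607 in the control, all at stage 49. The stage 49 gap between line 17_10 and the control follows from the choice of genes. At stage 59 the summed level was 2.234, 19.86 and 1.436 in line 17_10, against 6691, 6179 and 6248 in the control. Line 17_10 stage 59 replicate 2 thus held most of the trace, with 29 reads spread over 12 of the 15 genes, where replicates 1 and 3 had 1 read each. That library has 78121108 reads, against 24459652 and 37151076, and what these reads stem from was not tested.

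**Figure D2:**
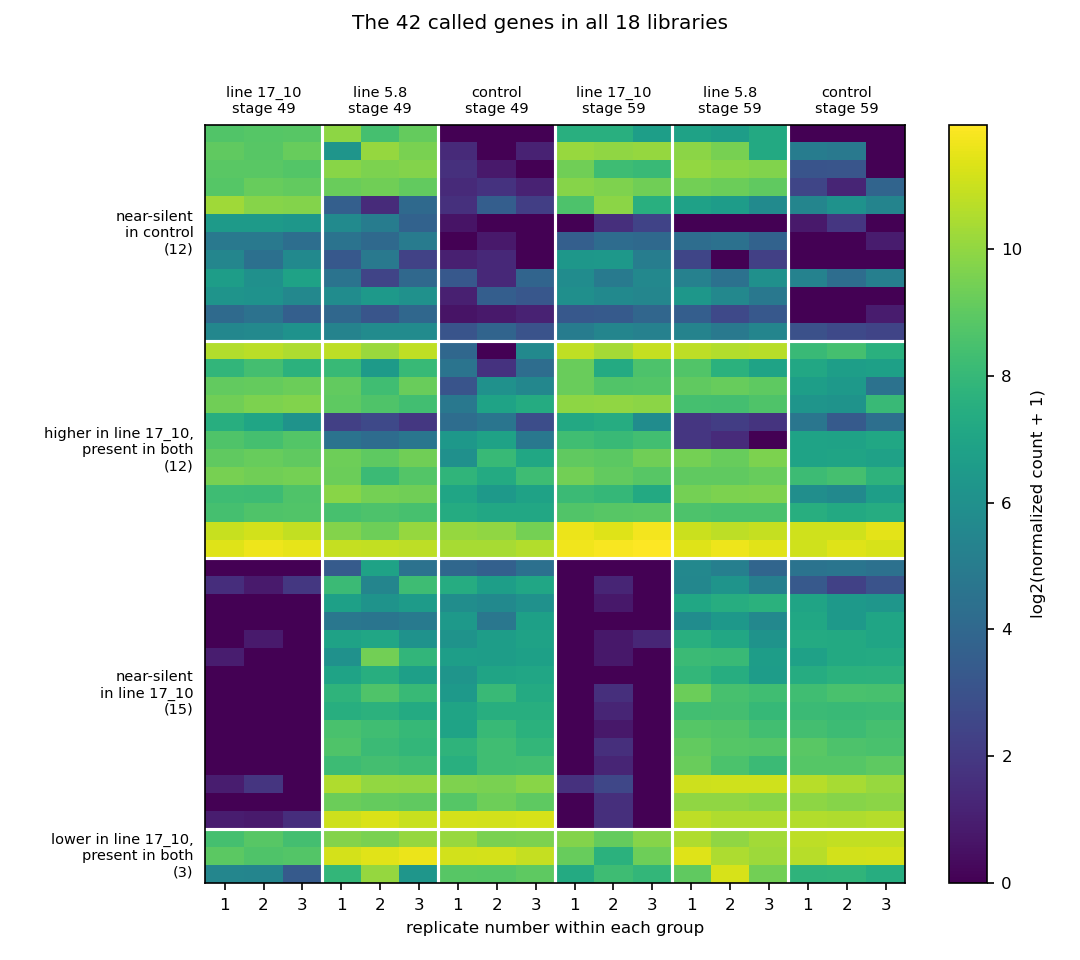
Level of each of the 42 called genes (rows, grouped by pattern with the number of genes) in the 18 libraries (columns, 3 replicates for each genotype and stage), as log2(normalized count + 1). The rows near-silent in line 17_10 are dark in its 6 libraries and brighter in the 12 others, faintly so for MLOC_12283 in the stage 59 control, and most rows near-silent in the control are lit in both silenced lines.

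MLOC_12283, named because it was the exception among the 15, was chosen after its values were seen. It had 1.928, 0.8449 and 2.87 normalized counts in line 17_10 at stage 49, against 168.6, 102.7 and 133 in the control (log2 fold change -5.59 ± 0.65 SE, adjusted p = 0.000377 by limma). At stage 59 it had 0, 1.37 and 0 in line 17_10, against 9.23, 3.979 and 7.242 in the control, and the difference was not called (log2 fold change -2.49, limma adjusted p = 0.383). The other 14 were called lower at stage 59 too.

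The remaining 3 lower genes were still present in line 17_10. MLOC_67381 was at 497.5, 399.6 and 425.7 normalized counts in line 17_10, against 2248, 2332 and 1908 in the control (log2 fold change -2.29 ± 0.36 SE, adjusted p = 0.0106 by limma). Its stage 59 difference was of the same size (log2 fold change -2.29, limma adjusted p = 0.0111). MLOC_38579 was at 341.3, 456.2 and 335.7 in line 17_10 and at 1120, 758.5 and 782.3 in the control (log2 fold change -1.22 ± 0.21 SE, adjusted p = 0.023 by limma). Leaving out single libraries ended both calls, with adjusted p of 0.0517 to 0.078 for MLOC_67381 without 1 of 4 libraries and 0.0564 to 0.184 for MLOC_38579 without 1 of 4.

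MLOC_74627 differed at stage 49 alone by call. It had 43.39, 42.24 and 9.565 normalized counts in line 17_10, against 461.8, 446.7 and 513.9 in the control (log2 fold change -4.12 ± 0.79 SE, adjusted p = 0.0484 by limma). Line 5.8 was uneven at 244.1, 1073 and 76.5 at stage 49, and this spread enters the shared error of the fit. The lines did not differ by test (log2 fold change -3.325 for line 17_10 minus line 5.8, limma adjusted p = 0.155). At stage 59 line 17_10 held 158.6, 298.6 and 241.3 and the control 218.4, 225.5 and 176.5, ranges that overlap. The test of the difference between the stages did not pass (limma adjusted p = 1). The call was at the edge of the threshold and was lost without any 1 of the 6 stage 49 libraries compared (adjusted p 0.0961 to 0.351 by limma, log2 fold change -3.44 without line 17_10 replicate 3) and by edgeR (adjusted p = 0.166). In all, 22 of 32 alternative settings ended it.

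Among the 24 higher genes, 12 were near-silent in the control. They summed to 3454, 3176 and 3271 normalized counts in the line 17_10 libraries, against 27.55, 43.1 and 36.27 in the control libraries. These are 10761 reads over the 3 libraries of the line, against 135 over those of the control. Each of the 12 was called on these libraries, so the gap between the sums follows from the choice of genes. Line 5.8 had sums of 2792, 3080 and 2931 at stage 49. Of the 12, 9 were called higher there than in the control and 3 were not called, against 0.279% of all tested genes called. Among the 3 was MLOC_8115, which had the highest mean of the 12 in line 17_10 (980.1) and averaged 9.705 in line 5.8. MLOC_53680 averaged 462.1 in line 17_10 and 848.1 in line 5.8, so the sums do not speak for each gene.

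MLOC_54756 was the single gene with 0 reads in all control libraries. It had 414.6, 446.1 and 462 normalized counts in line 17_10, at least 173-fold above the floor of the control (limma adjusted p = 1.44e-09). It also had 0 reads in the 3 stage 59 control libraries, against 185.4, 186.3 and 102 in line 17_10. In line 5.8 it stood at 975, 339.3 and 562.2 at stage 49. The gene was thus read in all 12 libraries of the silenced lines and in 0 of 6 control libraries.

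MLOC_60700 was at 517.8, 457.1 and 576.8 normalized counts in line 17_10, against 1.653, 0 and 1.209 in the control (log2 fold change 8.16 ± 1.18 SE, adjusted p = 0.00405 by limma). Line 5.8 was uneven at 73.47, 1085 and 758.7, and this spread enters the shared error of the fit. MLOC_53680 was at 477.3, 474.8 and 434.3 in line 17_10 and at 2.204, 0.7836 and 0 in the control (log2 fold change 8.02 ± 0.66 SE, adjusted p = 6.17e-06 by limma). Line 5.8 was higher still, at 919, 770.5 and 854.8, and the lines did not differ by test (log2 fold change -0.87 ± 0.66 SE for line 17_10 minus line 5.8, adjusted p = 0.495 by limma).

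MLOC_8115 set line 17_10 apart from both other genotypes. It was at 1203, 875.3 and 861.8 normalized counts in line 17_10, at 11.21, 1.767 and 16.14 in line 5.8 and at 2.204, 10.97 and 3.627 in the control. The difference from the control was 7.43 ± 0.69 SE in log2 (adjusted p = 2.6e-05 by limma) and that from line 5.8 was 6.86 (limma adjusted p = 5.35e-05). At stage 59 line 17_10 spread from 186.7 to 934.8, against 40.73 to 67.64 in the control, and this difference did not pass (log2 fold change 3.04, limma adjusted p = 0.181).

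MLOC_20041 was found at stage 49 and nearly absent at stage 59. It had 89.67, 91.24 and 78.44 normalized counts in line 17_10, 51.05, 30.93 and 12.63 in line 5.8 and 0.551, 0 and 0 in the control, which is 1 control read. At stage 59 it had 0, 2.055 and 4.309 in line 17_10, against 0.7691, 2.652 and 0 in the control. The stage 49 difference was 6.24 ± 0.65 SE in log2 (adjusted p = 9.52e-05 by limma), and the difference between the stages was 5.79 (limma adjusted p = 0.23), which did not pass over all genes.

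**Figure D3:**
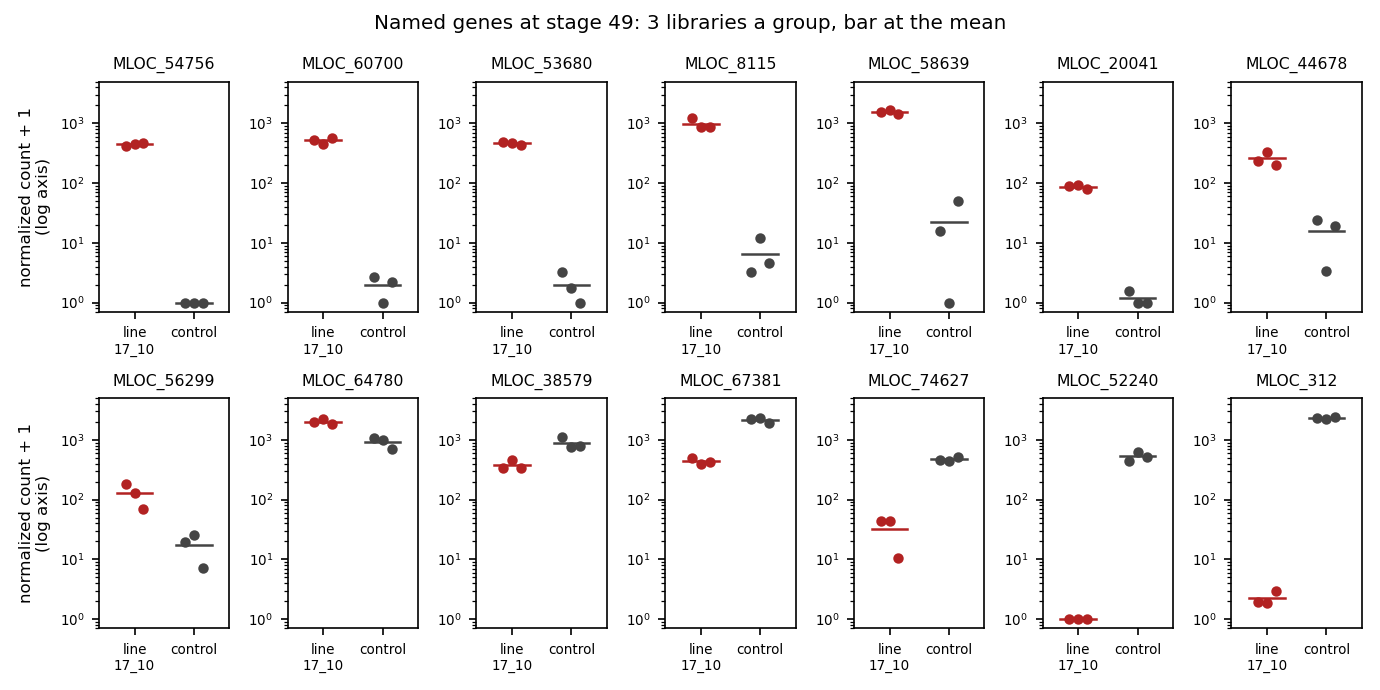
Normalized count + 1 (log axis) of 14 genes at stage 49 in the 3 libraries of line 17_10 (left of each panel) and the 3 of the control (right), with a bar at each mean. The groups are apart in each panel, with log2 fold changes from 1.16 in MLOC_64780 to 8.79 in MLOC_54756 among the higher genes and from -1.22 in MLOC_38579 to -10.04 in MLOC_312 among the lower ones.

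The 12 higher genes present in both genotypes ran from a log2 fold change of 1.05 to 7.37. MLOC_58639 was at 1543, 1678 and 1416 normalized counts in line 17_10, against 14.88, 0 and 49.58 in the control (log2 fold change 7.37 ± 0.9 SE, adjusted p = 0.000637 by limma). The size rested on single control libraries, with a log2 fold change of 5.77 without control stage 49 replicate 2 and 8.6 without replicate 3. At stage 59 line 17_10 stood at 1781, 1281 and 1926, against 273.8, 338.2 and 189.2 in the control, whose levels were thus higher than at stage 49. The stage 59 difference had no overlap but did not pass (log2 fold change 2.65, limma adjusted p = 0.666). MLOC_44678 followed a like course, with 236.2, 332 and 201.8 in line 17_10 and 23.14, 2.351 and 18.14 in the control at stage 49 (log2 fold change 4.45 ± 0.7 SE, adjusted p = 0.0102 by limma), and 3.55 in log2 without control replicate 2. At stage 59 it had 601, 157.5 and 386.4 in line 17_10 against 143.1, 102.1 and 110.4 in the control (log2 fold change 1.49, limma adjusted p = 0.904).

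In fits of the 6 compared libraries alone, MLOC_58639 and MLOC_44678 were not called, at limma adjusted p of 0.396 and 0.322, nor were MLOC_38579 (0.322) and MLOC_64780 (0.242, described next). Without line 17_10 stage 49 replicate 1 or 2, MLOC_44678 stood at 0.0552 and 0.078.

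MLOC_64780 showed a small, even difference, with 2009, 2220 and 1833 normalized counts in line 17_10 and 1060, 997.5 and 695.3 in the control (log2 fold change 1.16 ± 0.19 SE, adjusted p = 0.0167 by limma). At stage 59 its groups overlapped, with 3114, 2664 and 3427 in line 17_10 and 2186, 2152 and 2842 in the control (log2 fold change 0.36, limma adjusted p = 0.926). The call was lost without control replicate 3 or any 1 line 17_10 replicate of stage 49 (adjusted p 0.0531 to 0.111).

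MLOC_56299 was at 181.3, 127.6 and 68.87 normalized counts in line 17_10, at 3.736, 5.302 and 2.807 in line 5.8 and at 18.18, 24.29 and 6.046 in the control. Its difference from the control was 2.97 ± 0.56 SE in log2 (adjusted p = 0.047 by limma) and that from line 5.8 was 4.6 (limma adjusted p = 0.00048). The call against the control was lost in 21 of the 32 alternative settings, edgeR among them (adjusted p = 0.0507).

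Beside MLOC_8115, MLOC_56299 and MLOC_64780, the higher genes that also differed from line 5.8 were MLOC_60586 and MLOC_13987, named after their values were seen, so that these were 5 of 24. MLOC_60586 averaged 391.4 ± 41.62 in line 17_10, 21.55 ± 3.526 in line 5.8 and 75.15 ± 45.48 in control spikes (SD, n = 3 each). Its call against the control was near the threshold (limma adjusted p = 0.047). The gene was not called in the 6 compared libraries alone (limma adjusted p = 0.598) or at stage 59 (limma adjusted p = 0.831). MLOC_13987 averaged 2922 ± 252.9, 1826 ± 85.78 and 1406 ± 102.8 in the same order, and its log2 fold change against the control, 1.05 by limma, was the smallest of the 42 in that fit.

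Of the 18 lower genes, 17 were called lower in line 17_10 than in line 5.8, and 0 were called in line 5.8 against the control. Over all tested genes these shares were 0.284% and 0.279%, at which a count of 0 among 18 says nothing about the lower genes. Of the 24 higher genes, 5 were called higher than in line 5.8, and 15 were called higher in line 5.8 against the control as well. The comparisons of the lines with the control share the 3 control libraries, and that between the lines shares those of line 17_10, so the counts describe these libraries and are not independent evidence.

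The same line and control at stage 59 are other libraries. Of the 24 genes higher at stage 49, 24 had the same sign at stage 59 and 14 were called, and of the 18 lower genes, 17 had the same sign and 16 were called. At that stage 0.196% of the tested genes were called. No overlap between the groups was seen in 21 of the 24 and 17 of the 18, against 17% of all tested features. The 2 stages share the estimate of spread in the fit. The median log2 fold change of the 24 higher genes was 3.5 at stage 49 and 2.66 at stage 59, against 0 for all tested genes at each stage. That of the 18 lower genes was -6.58 and -7.23. All were picked by their stage 49 values, so the sizes at the 2 stages are not on equal terms.

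**Figure D4:**
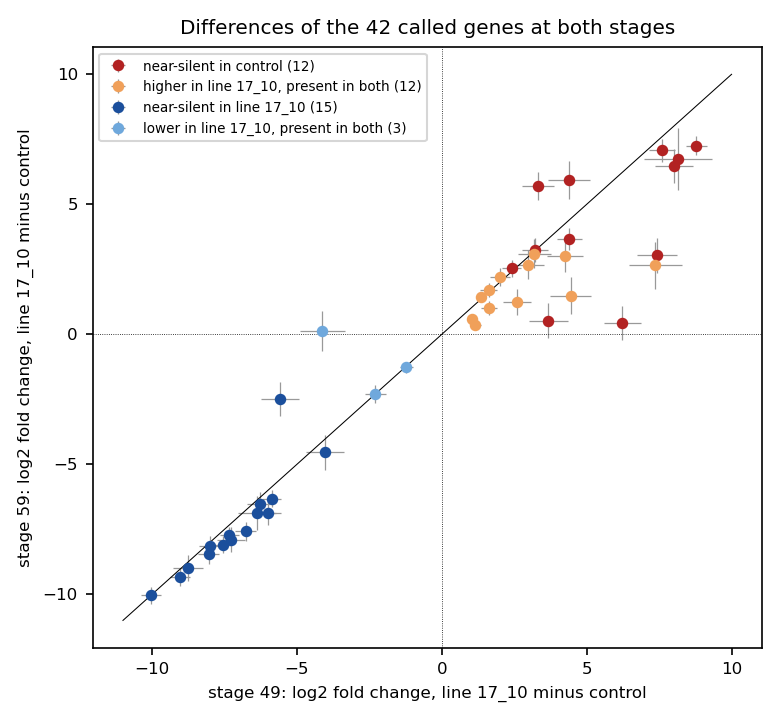
Log2 fold change of line 17_10 over control at stage 49 (horizontal) and stage 59 (vertical) for the 42 genes called at stage 49, coloured by pattern, with bars of 1 SE; the line marks equal differences. Genes near-silent in line 17_10 follow the line except MLOC_12283, while several higher genes, MLOC_20041 and MLOC_58639 among them, lie below it.

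A test of whether the difference from the control itself differed between the stages passed for 0 genes by limma (unadjusted p below 0.05 in 419) and 0 by edgeR (439), and for 12 by DESeq2. The genes near-silent in the control that were not called at stage 59 were MLOC_20041, MLOC_8115 and MLOC_13942, the last named after its values were seen. MLOC_13942 was at 99.31, 62.52 and 118.6 normalized counts in line 17_10 and at 8.816, 1.567 and 13.3 in the control at stage 49, and at 55.85, 28.76 and 47.4 against 38.46, 18.57 and 34.4 at stage 59.

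Line 17_10 stage 49 replicate 2 stood apart in features with EPlHVUG identifiers, which took 7.46% of its normalized counts, against 0.491 and 0.366% in the other line 17_10 libraries and 0.353 to 0.797% in the control libraries. EPlHVUG00000010090 had 171300, 3125000 and 117700 normalized counts in line 17_10 and 120500, 298000 and 121100 in the control. EPlHVUG00000010111 had 85060, 1400000 and 57210 in line 17_10 and 56860, 127100 and 62920 in the control. Neither was called (log2 fold changes 1.29 and 1.3, limma adjusted p = 1 for both), and the other libraries of the groups overlapped. Of 133 EPlHVUG features tested, 0 were called by limma (4 at an unadjusted p below 0.05), 0 by edgeR and 0 by DESeq2, which gave no adjusted p for the 2 features above. Over all features limma called 0.217%, with 282 of 19369 at an unadjusted p below 0.05, so a count of 0 among 133 is near the background and is no result about these features. Without that library, 29 of the 42 genes were called, 14 higher and 15 lower. Shares of EPlHVUG features were raised to a lesser degree in some stage 59 libraries of the silenced lines. They were 2.2% in line 17_10 replicate 3, and 1.71 and 1.75% in line 5.8 replicates 2 and 3. The other stage 59 libraries of the lines lay at 0.207 to 0.54%, and those of the control at 0.359 to 0.451%.

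How many genes are called depends on the fit. A fit of the 6 libraries alone called 23 genes (8 higher, 15 lower), edgeR called 34 (18 higher, 16 lower) and DESeq2 75 (49 higher, 26 lower). Of the 42 genes, 22 were called by all 4 ways, 7 higher and 15 lower, and 14 of the 15 genes near-silent in line 17_10 were among them. In the 18-library fit, 282 genes had an unadjusted p below 0.05, which is under the 968 that make up 5% of those tested.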

How the data were processed

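RNA of whole spikes was sequenced from a stranded mRNA kit, per the labels' protocols. The deposited signal is 1 table of gene counts divided by a DESeq size factor per library, as the authors' file naming and the values show. Named in the submitters' processing notes, without their roles, are DESeq2, STAR 2.4.2a and Subread 1.5.2. Not given in the sources used here are build, annotation and strand setting, so reads of near-identical or overlapping genes may be split. Within each library all values (100%) were whole multiples of the smallest one, within 0.001 reads, which gave back whole reads. Size-factor scaling leaves no trace of a change in total RNA.

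Features reaching 10 normalized counts in 3 or more of the 6 libraries were tested as log2(normalized count + 1), which understates changes of low genes. All 18 libraries entered a limma 3.58.1 fit (R 4.3.3) with 6 group means and empirical Bayes moderation with a trend. Tests were two-sided, with Benjamini-Hochberg adjustment over all 19369 features and calls at an adjusted p below 0.05. Alternatives included edgeR 4.0.16 (quasi-likelihood) and DESeq2 1.42.0 on recovered reads. Replicate libraries differed by far more than sampling noise (chi-square per gene at least 45.3). Floors of 3 reads and intervals cover counting error only and leave out the spread between replicates. The counts do not tell PCR copies from other reads. P-values measure the spread between libraries that the series calls biological replicates.

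Genes were named by a rule over called genes without overlap and with a mean of at least 50 in the higher group. It took the 2 largest rises and falls among those near-silent (mean below 10) in the lower group, those present in both, those called alike in line 5.8 and those set apart from line 5.8, and those least changed at stage 59. The 2 most abundant EPlHVUG features of line 17_10 replicate 2 were added. Members, lists and rules were chosen with earlier results of these data known. No gene list or marker list could be formed, since no identifier matched the reference table of 58438 genes.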

Additional observations from a re-analysis of the deposited data

Results flagged for a closer look

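For 7 of the 14 named genes that passed, the difference from the control was not the same in both silenced lines, by the limma test of line 17_10 against line 5.8 at stage 49. On the log2 scale, line 17_10 minus line 5.8 was -9.96 for MLOC_312, -9.15 for MLOC_52240, -2.62 for MLOC_67381 and -1.23 for MLOC_38579. It was 1.28 for MLOC_64780, 4.6 for MLOC_56299 and 6.86 for MLOC_8115. Over all tested genes 0.284% were called in this test, and 4 of the 7 were named in part because of it.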

How the results depend on the processing

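Of the 448 alternative values of the 14 named genes, 381 kept their direction and side of the threshold, 67 kept the direction alone and 0 reversed. The genes were named for a lack of overlap, so leaving out 1 library could not reverse a direction. Many other settings keep the group means and with them the fold change, so the count of 0 adds no support. Leaving out 1 library, the log2 fold changes of EPlHVUG00000010090 and EPlHVUG00000010111 ran from -0.201 to 2.16 and from -0.141 to 2.17, the negative ones without line 17_10 stage 49 replicate 2. The 42 calls became 23 in the compared groups alone, 75 by DESeq2 and 465 with array weights, where control stage 49 replicate 1 weighed 6.25 and replicate 2 0.31 (the default weight estimate did not converge and was not used). Leaving out 1 library gave 28 to 42 calls; without line 17_10 replicate 1, 2 or 3 of stage 49 the higher genes were 13, 14 and 14. The 30 genes changed alike at both stages became 15 in the compared groups alone and 52 with array weights. The 22 genes set apart from line 5.8 became 115 with array weights. The 0 genes that differed between the stages became 1 with a pseudocount of 5, 12 by DESeq2, 12 with array weights, and 0 to 15 when 1 library was left out, 15 without control stage 59 replicate 3. The causes were not tested. Same-numbered libraries of line 17_10 and control did not deviate together (correlations -0.04, -0.06 and -0.15, and 0 of 3 line libraries correlated best with their own number). With the replicate number as a block, 41 genes were called in all 18 libraries; with the block in the compared groups alone, 10, and 0 at both stages and 0 against line 5.8. TMM scaling gave the same 42. Fitted sizes of genes near 0 reads depend on the added count and the tool: MLOC_52240 was at -9.03 in log2, -6.72 with a pseudocount of 5 and -12.1 by edgeR. Depth limits the genes at 0 reads, for which bounds alone are given.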
